A study of Drosophila melanogaster with 16 samples.

Results

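Small RNA reads were examined on 10 annotated transcripts of chromosome 4 of Drosophila melanogaster (fruit fly), which belong to 9 genes, out of 2303 transcripts counted on the dm6 genome. The 10 are single transcripts of MED26, Ank, CG31999, Rnf11, lncRNA:CR44024, lgs, Taf3 and Asator and a pair of transcripts of pan. They were selected on their read counts, as chromosome 4 rows that hold small RNA reads, and are given by transcript identifier with no stated limit on the values. By mean count over the libraries the 10 held ranks between 2 and 20 among the 21 chromosome 4 transcripts of the table. Values inside and outside the list therefore interleave: Kif3C (mean of 4116.5 reads) and unc-13 (76.4) lay outside it, whereas Asator (33.9) and Taf3 (5.31) lay inside.

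Total small RNA was sequenced from 16 libraries, 2 replicates for each of 8 conditions of genotype, sex and age, and each library was made from 40 whole flies of 1 sex. Wildtype flies were of the wDah strain, a white mutant in the outbred Dahomey background, and dFOXO-null flies (wDah;dfoxo{delta}94) carry in addition a deletion of the foxo gene on that background, so both genotypes share the white mutation. The young age was 5 days for replicate 1 but 6 days for replicate 2, while 31 days was the old age of either replicate. Both sexes of a genotype were housed together and mated, young and old flies of a replicate were siblings, and the dFOXO-null flies carry a single deletion allele. The RNA comes from whole bodies, so a difference in the number of cells of a type and a difference in small RNA per cell cannot be told apart.

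Chromosome 4 is the smallest autosome of the fly, and its genes lie among remnants of transposons, above all hoppel (listed as DM1360) and INE-1, in chromatin that carries marks of heterochromatin while the genes stay active. Small RNAs that match messenger RNAs or noncoding RNAs can be endogenous siRNAs cut by Dicer-2 from double-stranded RNA, piRNAs of the germline and its supporting cells, or fragments of RNA breakdown. A read from a transposon copy inside an exon matches the other copies of that element as well. The reads counted here were at most 25 nt long, so the longer piRNAs were largely left out, and the strand and position of a read within a transcript are not given by a count.

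The 16 libraries held 394784 to 6166465 reads on the dm6 transcripts (median 2204855), and replicate 1 was deeper (median 3779166) than replicate 2 (1139667.5). Between replicates of a condition, chi-square divided by its degrees of freedom was 46.9 to 598, far above counting error. The share of reads on rRNA, tRNA, snRNA and snoRNA transcripts ran from 9.86% to 41.9%. As a check of the labels, the ovary miRNAs miR-318-3p, miR-994-5p and miR-989-3p, all 3 in the table of 19 to 25 nt reads, summed to 1.27% to 4.77% in females and 0.0106% to 0.154% in males, and the 2 testis miRNAs in that table (of 10 listed) summed to 0.000924% to 0.00843% and 0.0173% to 0.0558%. The highest ovary sum of a male library, 0.154%, was in old dFOXO-null males of replicate 2, the shallowest library, against 0.0106% to 0.0301% in the other 7 male libraries. That library is called the shallow male library below.

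Transcripts in the table nearly always had exon parts that no other annotated isoform of their gene covers, called private exons here. Of 299 transcripts in the table whose gene has several isoforms, 291 (97.3%) had private exon bases, against 10990 of 24466 such transcripts outside it (44.9%). The isoforms were taken from an Ensembl annotation of dm6, which may differ from the one used for counting, and a row does not say on which exon its reads lie. The private exon of MED26 (FBtr0089253, chromosome 4, 778516 to 788978, minus strand) is 84 bases of 5′ UTR at 788895 to 788978. The pan transcript FBtr0100246 (69326 to 101419, plus strand) has 1944 private bases at its 3′ end, 79 of them coding and 1865 of 3′ UTR, and the pan transcript FBtr0309803 (69653 to 114270) has 4211 bases of 3′ UTR farther downstream. The Rnf11 transcript FBtr0089123 (314923 to 321385, plus strand) has 222 private bases of 5′ UTR and 1346 of 3′ UTR, and CG31999 FBtr0344870 (215009 to 227748, minus strand) has 667, all 5′ UTR. Ank FBtr0300497 (115074 to 129849, minus strand) has 928 private bases, 52 of 5′ UTR and 876 of 3′ UTR, and Asator FBtr0332906 (469409 to 486033, minus strand) has 1877 of 3′ UTR. The transcripts of lncRNA:CR44024 (FBtr0334481, 427331 to 431769, plus strand, 2654 exon bases), lgs (FBtr0089111, 436957 to 443911, minus strand, 5357) and Taf3 (FBtr0089110, 459887 to 466828, minus strand, 4514) are the single isoforms of their genes, and all their exons are private.

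Small RNA on the 10 transcripts was mostly female. Of 32645 reads on them in all libraries, 30846 (94.5%) came from the 8 female libraries. The 10 together took 0.0812% to 0.213% of a female library (median 0.141%) and 0.00697% to 0.0241% of a male library (median 0.00986%), and no male library reached a female one. The shallow male library held the highest male share, and the other 7 males lay between 0.00697% and 0.0129%. The mean share was 12.3 times higher in females, and 14.7 times without the shallow male library. With the libraries matched by genotype, age and replicate number, the female share was higher in 8 of 8 pairs.

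The order of the conditions was set by sex first. Young wildtype females had the highest summed share, 0.179% ± 0.0483 (SD, n = 2), followed by young dFOXO-null females at 0.137% ± 0.00112, old dFOXO-null females at 0.123% ± 0.0358 and old wildtype females at 0.120% ± 0.0547. Each of these neighbours overlapped the next within 1 SD. Old dFOXO-null males followed at 0.0172% ± 0.00970, then young dFOXO-null males at 0.0119% ± 0.00150, young wildtype males at 0.00896% ± 0.000578 and old wildtype males at 0.00725% ± 0.000395. The 2 dFOXO-null male conditions overlapped within 1 SD, and the ranges of mean ± SD of the next male neighbours did not. The place of old dFOXO-null males rested on the shallow male library, since their other replicate was at 0.0103%, below both young dFOXO-null male libraries.

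Counts were compared with edgeR over all transcripts with a mean of at least 5 reads, and a transcript was called at an adjusted p under 0.05. All 10 transcripts passed this filter. Females had more small RNA than males on 9 of the 10, and the background was high, since 49.7% of the tested transcripts were called, 40.0% higher in females and 9.71% lower. The estimates of the 9 were large against that background: the median log2 fold change of the 10 was 3.21, against 0.51 over all tested. They were not large against the rest of chromosome 4, where the 10 tested transcripts outside the list had a median of 3.40. Of the 10, 6 did not overlap between the sexes in any library, against 14.0% of the tested transcripts with all 8 female libraries above all 8 male ones and 5.49% with all below. The tested transcripts include structural RNAs and miRNA precursors, whereas the 10 are protein-coding or noncoding RNA transcripts. Of 840 tested transcripts of that class, 186 had all female libraries above all male ones. Their median ratio of female to male mean percent was 2.87, against 1.54 for all 1562 annotated and tested transcripts and 9.91 for the 10. The 8 tested protein-coding transcripts of chromosome 4 outside the list had a median ratio of 15.8. All female libraries lay above all male ones on 7 of these 8. Ank, lgs and Taf3 had a male mean under 5 reads and passed the filter through their female counts. Their calls, and the lack of overlap of Ank, therefore add no support to these counts.

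Rnf11, a RING-type E3 ubiquitin ligase, held the most reads of the 10. In percent of the dm6 reads, the 8 female libraries ran from 0.0282 to 0.0883 (median 0.0485) and the male ones from 0.000955 to 0.0106 (median 0.00202). The 2 ranges did not overlap, and the male maximum was the shallow male library, while the other 7 males stayed at or below 0.00277. The log2 fold change was 4.38 (SE 0.40, adjusted p = 1.2e-07), and 4.88 without that library.

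lncRNA:CR44024, a noncoding RNA, came next. Its female libraries lay between 0.0160 and 0.0609 percent (median 0.0293) and its male libraries between 0.00164 and 0.00481 (median 0.00300). Every female library exceeded every male library, with a log2 fold change of 3.57 (SE 0.33, adjusted p = 1.4e-07).

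The pan gene encodes the TCF transcription factor at the end of the Wingless pathway, which turns Wingless target genes on with Armadillo and holds them off without it. On FBtr0100246 the female libraries ran from 0.00784 to 0.0503 percent (median 0.0148) and the male libraries from 0.000786 to 0.00380 (median 0.00113), with no overlap. The log2 fold change was 3.74 (SE 0.34, adjusted p = 1.2e-07). FBtr0309803, the other pan transcript, was lower: females from 0.000414 to 0.00247 (median 0.00146) and males from 0 to 0.000650 (median 0.000304). These ranges overlapped, and the log2 fold change was 2.15 (SE 0.48, adjusted p = 0.0011). The 2 transcripts share 1370 exon bases, and across the 8 female libraries their log2 percents had a correlation of 0.02, given as a description.

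The lgs gene encodes Legless, the adaptor that joins Armadillo to Pygopus in the same pathway. It had 2 to 22 reads per female library and 0 to 13 per male library, or 0.000176 to 0.000747 percent (median 0.000331) and 0 to 0.000211 percent (median 0.0000967). The sexes overlapped by these ranges, and the log2 fold change was 1.94 (SE 0.49, adjusted p = 0.0033).

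MED26 and Taf3 encode parts of the transcription machinery, a subunit of the Mediator complex and a subunit of TFIID, which binds core promoters. MED26 ran from 0.00340 to 0.0276 percent in females (median 0.0105) and from 0.000637 to 0.00228 in males (median 0.00163). The sexes did not overlap, although the lowest female library, old dFOXO-null replicate 1, was close to the highest male one. The log2 fold change was 2.85 (SE 0.36, adjusted p = 4.5e-06). Taf3 had 1 to 20 reads in each female library and 0 to 6 in each male library, with 3 male libraries at 0, and its log2 fold change was 2.65 (SE 0.73, adjusted p = 0.0064). Both old dFOXO-null male libraries were at 0 for Taf3, so its fitted fold change depends on the prior count of the model.

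Ank encodes Ankyrin, an adaptor between membrane proteins and the spectrin skeleton, and it had the largest ratio of the 10. Its female libraries lay between 0.00284 and 0.00895 percent (median 0.00492), from 63 to 358 reads, and its male libraries held 0 to 10 reads, at most 0.000251 percent. Every female library exceeded every male library, the ratio of the mean percents was 39.7, and the log2 fold change was 5.25 (SE 0.43, adjusted p = 4.2e-08). The male mean of Ank was 2.875 reads, so it passed the filter through its female counts and these values are a description. CG31999, a gene named here by its annotation number only, ran from 0.00416 to 0.0214 percent in females (median 0.00929) and from 0.000169 to 0.00203 in males (median 0.000459), also with no overlap. Its log2 fold change was 4.19 (SE 0.41, adjusted p = 2.7e-07).

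Asator, a kinase of the tau-tubulin kinase family that associates with the spindle matrix, stood apart from the other 9. Its female libraries ran from 0.000351 to 0.00285 percent (median 0.00130) and its male libraries from 0.000251 to 0.00218 (median 0.000951). The ranges overlapped almost entirely, the female library was higher in 6 of 8 matched pairs, and the log2 fold change of 0.25 (SE 0.54, adjusted p = 0.724) did not pass the test, and it was −0.10 with TMM factors and −0.19 with DESeq2.

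**Figure D1:**
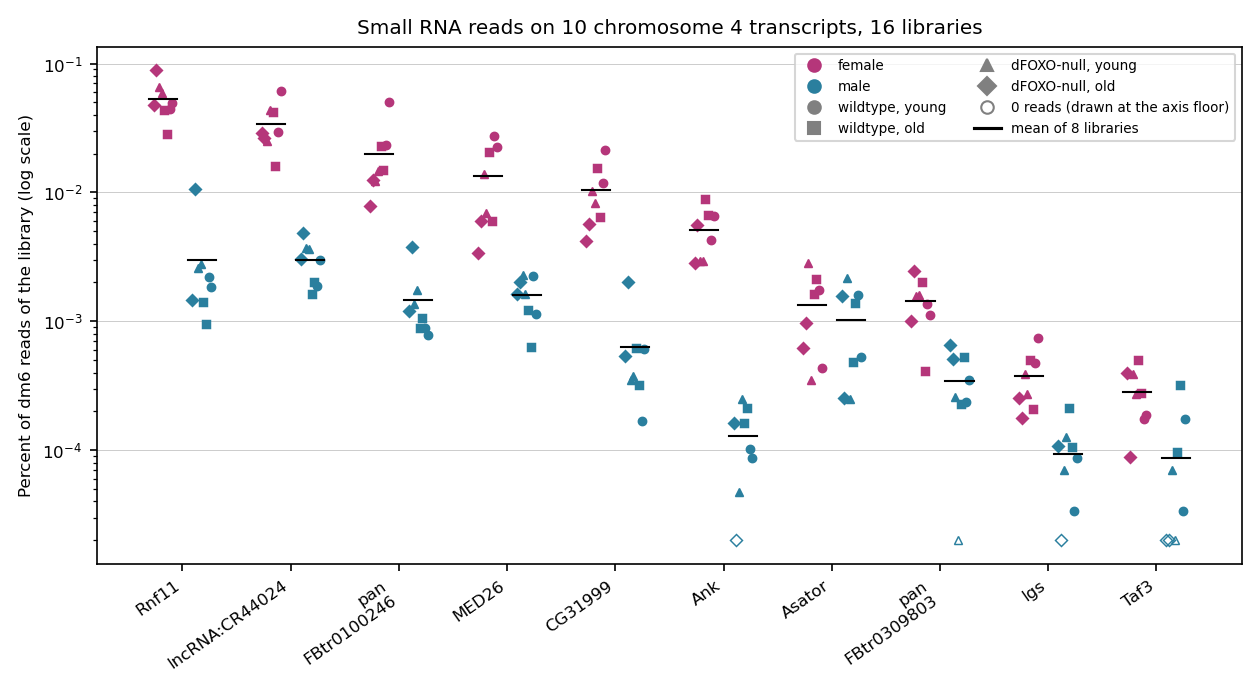
Percent of the dm6 reads of each library (log axis) on each of the 10 transcripts, ordered by mean count, with females in pink and males in blue, shapes for genotype and age, black lines at the mean of 8 libraries, and open symbols at the bottom for 0 reads. The sexes are separate for Rnf11, lncRNA:CR44024, pan FBtr0100246, MED26, CG31999 and Ank, and overlap for Asator, pan FBtr0309803, lgs and Taf3.

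At low counts the precision was limited. Of the 160 values of the 10 transcripts, 6 were 0, all in male libraries, and a count of 0 allows a share of up to 0.000162% to 0.00076% in those libraries (3 reads of the total). In the shallow male library 0 reads on Ank allow up to 0.00076%, which is above every other male value of Ank. These limits cover counting error only, since reads carry no molecular identifiers.

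Per kilobase of private exon, the mean level in females was highest on MED26 at 0.159% per kilobase, in the shortest private exon of the 10, followed by Rnf11 at 0.0340, CG31999 at 0.0157, lncRNA:CR44024 at 0.0128 and pan FBtr0100246 at 0.0102. Ank stood at 0.00548 and Asator at 0.000715. The other pan transcript was at 0.000342, and lgs and Taf3 were lowest at 0.0000705 and 0.0000631. On the same scale in males, MED26 was again highest at 0.0190 and lgs lowest at 0.0000173. This scale takes all reads of a row as lying on its private bases, which the counts do not show. Per kilobase of all exons, the female mean was highest on Rnf11 at 0.0231, followed by lncRNA:CR44024 at 0.0128 and pan FBtr0100246 at 0.00522. CG31999 was at 0.00287 and MED26 at 0.00272.

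Other genes of the Wingless pathway and of Mediator were also in the table, on other chromosomes. Of 30 genes listed for the Wingless pathway 5 were in the table, with 6 transcripts, 5 of which were tested. Small RNA was higher in females on 4 of these 5, the transcripts of pan and lgs and that of dsh, which encodes Dishevelled, the relay below the Frizzled receptors (log2 fold change 3.86, SE 0.79, adjusted p = 0.00060). The transcript of pygo, the partner of lgs, had 0.56 (SE 0.45, adjusted p = 0.346), and that of arr held too few reads to be tested. Of 30 Mediator genes 7 were in the table, and all 7 were higher in females: beside MED26 these were MED11, MED15, MED23, MED25 and the kinase module genes Cdk8 and kto, with log2 fold changes of 3.41, 1.67, 3.51, 4.05, 3.95 and 4.21. The share of all tested transcripts called higher in females, structural RNAs and miRNA precursors included, was 40.0%. Of the 840 tested protein-coding or noncoding RNA transcripts, 502 had a female to male ratio over 2, so a female excess was common in that class. In males dsh, MED11, MED23, MED25 and kto had means of 1.875 to 4.125 reads, so they passed the filter through their female counts, as did lgs. The counts of calls are therefore no result about these pathways. Of 16 listed TFIID genes, Taf3 alone was in the table. None of the transcripts in these lists was called for age or genotype, where 19.5% and 9.83% of the tested transcripts were called.

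Annotated transposon insertions lay in the private exons of 7 of the 10 transcripts. On Rnf11, 1342 of the 1346 private bases of 3′ UTR were the start of a Stalker2 insertion of 8119 bases (320044 to 328162), a retrotransposon of the gypsy group, on the same strand. Of the 84 private bases of MED26, the 40 at its 5′ end lay in a hoppel insertion of 7854 bases (788939 to 796792), a DNA transposon, on the same strand. pan FBtr0100246 held 864 transposon bases from hoppel and INE-1, pan FBtr0309803 held 443 bases of INE-1, Ank 567 bases of G5, CG31999 233 bases of S, and lncRNA:CR44024 120 bases of hoppel and INE-1. No insertion was annotated in exons of lgs, Taf3 or Asator, the transcripts with the 3 lowest ratios of female to male mean percent, all of which overlapped between the sexes. Taf3 overlaps the antisense RNA asRNA:CR45126 over 895 bases and Asator overlaps CG33941 on the other strand over 463, and counting by strand is not given in the sources used here, so reads of these partners cannot be told apart.

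The whole table was split by such bases. Of 1562 annotated and tested transcripts, 102 (6.53%) had at least 20 transposon bases in private exons, and their median ratio of female to male mean percent was 15.4, against 1.43 for the other 1460. All 102 were protein-coding or noncoding RNA transcripts, and the other 738 transcripts of that class had a median ratio of 2.30. The median of the mean counts was 200 for the 102 and 18.5 for the 738. On chromosome 4 such bases were in 13 of 18 tested protein-coding or noncoding transcripts (72.2%), and on the other chromosomes in 89 of 822 (10.8%). The median ratio of the 13 was 13.5, and that of the 89 was 15.7. Among the 10, the 7 with transposon bases had a median ratio of 13.5, and the ratios of Taf3, lgs and Asator were 3.28, 4.07 and 1.30, on either side of the median of 2.30 for the 733 transcripts of other chromosomes without transposon bases. High ratios also occurred without such bases, and low ones with them. On chromosome 4 toy, which has no private exon and 139 transposon bases in a shared one, had a ratio of 32.8 with no overlap between the sexes, whereas pan FBtr0309803, with 443 INE-1 bases, stood at 4.18, close to lgs at 4.07. On other chromosomes dsh and kto had no transposon bases in their exons and ratios of 11.6 and 10.2. Their male means were 3.375 and 1.875 reads, so both passed the filter through their female counts. These are descriptions, and a part of transposon copies in the counts was not tested.

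Of the chromosome 4 transcripts outside the list 10 could be tested. Small RNA was higher in females on 7 of them, where 40.0% of all tested transcripts were, snoRNA:CD-24 and myo were not called at ratios of 1.22 and 1.77, and mir-954, a miRNA precursor, was lower (log2 fold change −1.42, SE 0.40, adjusted p = 0.0069). Of the 7, Sox102F, fuss and toy had male means of 4.2e-05%, 5.0e-05% and 0.000127%, below that of Ank (0.000128%). Like Ank, they passed the filter mostly through their female counts. Kif3C, a kinesin motor gene and the highest transcript of the chromosome, had a ratio of 5.20 with 1132 transposon bases, unc-13, which primes synaptic vesicles, a ratio of 11.4, and PlexA, a semaphorin receptor, a ratio of 10.2. Their log2 fold changes were 2.30, 3.35 and 3.46 (SE 0.30, 0.38 and 0.41).

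**Figure D2:**
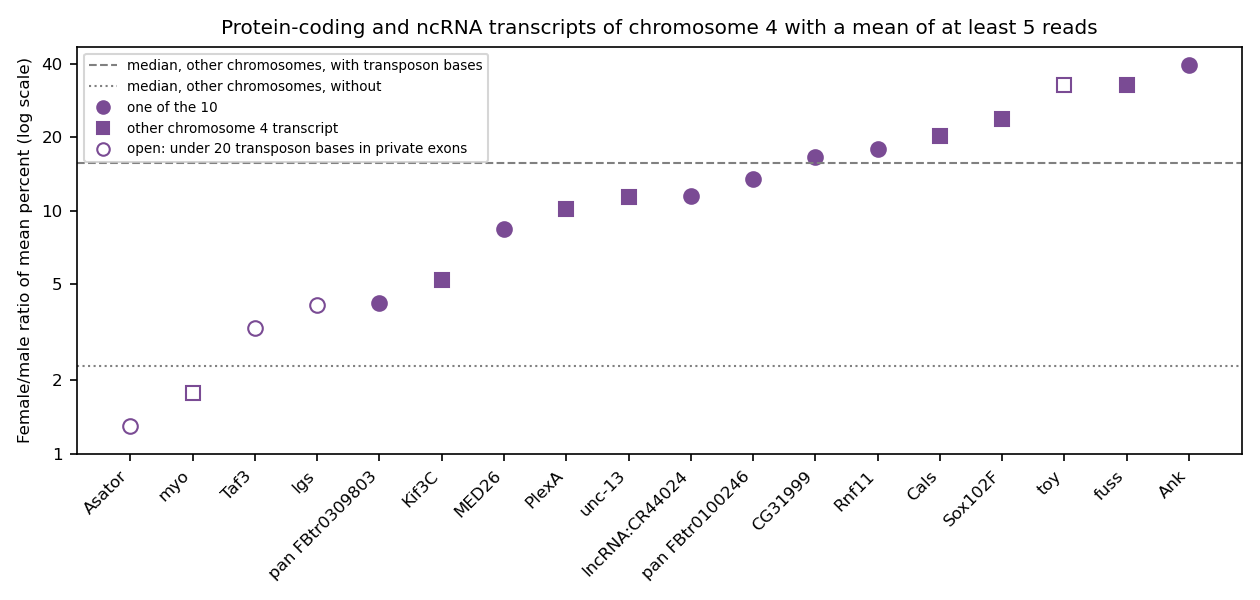
Ratio of the female to the male mean percent (log axis) for the 18 protein-coding and noncoding transcripts of chromosome 4 with a mean of at least 5 reads, circles for the 10 and squares for the others, filled where at least 20 transposon bases lie in private exons; the lines are the medians of other chromosomes with (15.7) and without (2.30) such bases. Of the 5 open symbols Asator, myo, Taf3 and lgs lie at the low end and toy near the top at 32.8, and Ank is highest at 39.7.

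The transposons themselves were counted in the table of 19 to 25 nt reads. Hoppel was 7.51 times higher in females and INE-1 36.7 times, and Stalker2 and G5, added after the insertions were seen, 23.7 and 35.8 times. Over 16 libraries, the log2 percent of Rnf11 had a correlation of 0.987 with that of Stalker2, and within the sexes 0.801 over 8 females and 0.882 over 8 males. pan FBtr0100246 had 0.967 with INE-1 (0.840 and 0.587 within sexes). For pan FBtr0309803 and INE-1 the value was 0.730 over all, with −0.17 and 0.17 within females and males, and for lncRNA:CR44024 and hoppel it was 0.916 over all, with −0.13 and 0.39. These are descriptions, and the 2 values of a pair come from the same libraries and can come from the same reads.

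MED26 moved almost read for read with a transcript of another chromosome, and the other nearest matches were looser in their read counts. The transcript with the pattern most like that of MED26, by the correlation of log2 percents over the 16 libraries among 665 other transcripts with a mean of at least 50 reads, was CR41509, a pseudogene on the Y chromosome, at 0.9986. MED26 had 0.929 to 1.2 times the reads of CR41509 in every library, and CR41509 held 62 to 1135 reads in the 8 female libraries, although females carry no Y chromosome, and its exon holds 17 bases of hoppel. Of 61 Y chromosome transcripts in the table, 24 had reads in every female library. A correlation over all 16 libraries includes the difference between the sexes, so the values within females and within males follow in that order. The nearest match of lncRNA:CR44024 was Alg-2 at 0.996 (within sexes 0.979 and 0.942), with 0.576 to 0.957 times its reads. That of Rnf11 was Ptp61F at 0.992 (within sexes 0.768 and 0.963), with 2 to 29 times its reads. smash was nearest to pan FBtr0100246 (0.986, within sexes 0.947 and 0.868), which had 2.16 to 14 times the reads of smash. ewg was nearest to CG31999 (0.988, within sexes 0.974 and 0.907), and both smash and ewg carry INE-1 bases in exons. Asator was nearest to Lim3 (0.981), with 0.4 to 0.75 times its reads in every library and 0.989 and 0.974 within females and males. Ank was nearest to lncRNA:CR46123 (0.970, within sexes 0.708 and 0.335) and pan FBtr0309803 to Bmcp (0.895, within sexes 0.862 and 0.670). The nearest to lgs was CG31999 (0.880, within sexes 0.935 and 0.463) and to Taf3 RpL5 (0.782, within sexes −0.279 and 0.943). Lim3 and Alg-2 lie on chromosomes 2L and 3R and have no annotated insertion in their exons.

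**Figure D3:**
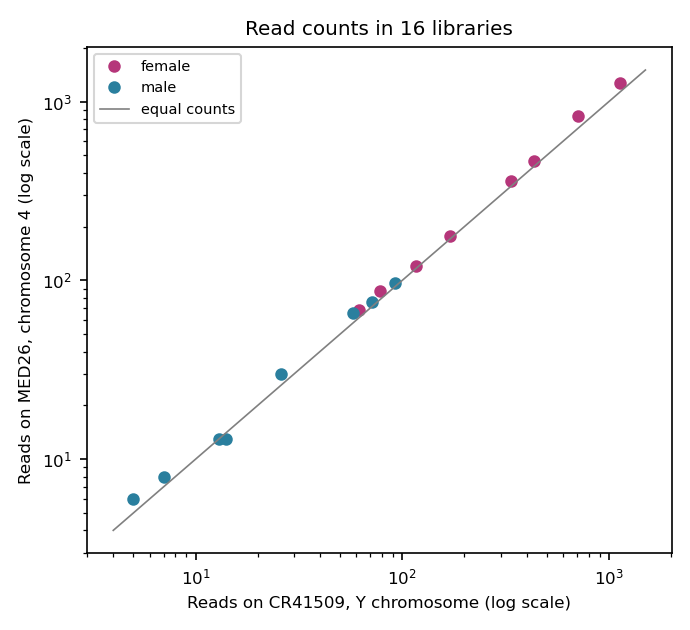
Read counts (log axes) on MED26 of chromosome 4 against CR41509 of the Y chromosome in 16 libraries, females pink and males blue, with a line at equal counts. All libraries lie along the line, with 0.929 to 1.2 MED26 reads for each CR41509 read.

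The female excess was present within each genotype and age. The ratio of the summed percent was 20.0 in young wildtype flies, 16.5 in old wildtype, 11.5 in young dFOXO-null and 7.12 in old dFOXO-null flies, and the last was 11.8 without the shallow male library. Within replicates the 4 ratios of replicate 1 ran from 9.40 to 22.7 and those of replicate 2 from 6.14 to 24.9. For Rnf11 the ratio was 23.3, 30.5, 23.4 and 11.2 in the same order, and without the shallow male library the lowest of these, in old dFOXO-null flies, became the highest at 46.5. For lncRNA:CR44024 it was 18.6, 15.9, 9.28 and 7.03, with 9.09 for the last without that library. The ovary miRNAs and the transposons moved with sex in the same libraries, by the sums given above, and their part in the result was not tested.

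Age gave no call. None of the 10 was called between old and young flies by edgeR, where 19.5% of the tested transcripts were (15.8% higher and 3.7% lower in old flies). Below 0.05 unadjusted were 1 of the 10 and 525 of all 1566 tested, and DESeq2 called 2 of the 10 and 386 of the 1566. The estimates lay between −0.75 and 0.55 on the log2 scale. The lowest was MED26, with −0.75 (SE 0.34, unadjusted p = 0.0426, adjusted p = 0.138), which was lower in old flies in 7 of 8 sibling pairs. In percent, MED26 was at 0.0276 and 0.0224 in young wildtype females and at 0.0207 and 0.00601 in old ones, and at 0.0140 and 0.00695 in young dFOXO-null females and at 0.00340 and 0.00600 in old ones. The old female libraries lay below the young ones of their genotype in both cases, and the share of all transcripts that separate in this way was not counted. In wildtype males MED26 was at 0.00223 and 0.00113 in young flies and at 0.00123 and 0.000637 in old ones. In dFOXO-null males it was at 0.00228 and 0.00163 in young flies and at 0.00162 and 0.00203 in old ones. The ages overlapped in males of both genotypes. Over all tested transcripts the median age estimate was 0.28. The call changed with the fit: MED26 was called lower in old flies with the cohort of siblings as a block (log2 fold change −0.82, adjusted p = 0.0394), with TMM factors (−1.35, adjusted p = 0.0171), with DESeq2 (−1.33, adjusted p = 0.0088) and without old wildtype females of replicate 1 (−1.04, adjusted p = 0.026). The range of its adjusted p over all alternatives was 0.00807 to 0.483.

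Genotype gave no call either. None of the 10 was called between dFOXO-null and wildtype flies by edgeR, against 9.83% of the tested transcripts (1.28% higher and 8.56% lower in dFOXO-null flies). Unadjusted, 342 of all 1566 tested were below 0.05, and DESeq2 called 117 of them. Of the 10, 1 was below 0.05 unadjusted and was the only one called by DESeq2. That transcript was Rnf11, with a log2 fold change of 0.99 (SE 0.36, unadjusted p = 0.0134, adjusted p = 0.0926), higher in dFOXO-null flies in 8 of 8 pairs matched by sex, age and replicate number. In young females Rnf11 was at 0.0447 and 0.0493 percent in wildtype and 0.0663 and 0.0592 in dFOXO-null flies, and in old females at 0.0439 and 0.0282 against 0.0478 and 0.0883. The dFOXO-null libraries were above both wildtype libraries at each age, and the share of all transcripts that separate in this way was not counted. In young males the values were 0.00220 and 0.00183 against 0.00258 and 0.00277, and in old males 0.00141 and 0.000955 against 0.00146 and 0.0106. The last value is the shallow male library, without which the log2 fold change was 0.50 (adjusted p = 0.318), whereas without its replicate 1 it was 1.21 and was called (adjusted p = 0.0241). DESeq2 gave 1.19 (adjusted p = 0.019), and the range over all alternatives was 0.019 to 1.0.

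Stalker2 showed the same order by genotype in the table of 19 to 25 nt reads. It ran from 0.161% to 0.202% in the 4 wildtype female libraries and from 0.267% to 0.430% in the 4 dFOXO-null ones, with no overlap. In males it was 0.00438% to 0.00694% in wildtype and 0.00695% to 0.0427% in dFOXO-null flies, and the highest value was again the shallow male library. These values are a description, since the element was picked for its insertion in Rnf11. The share of other transposons that separate by genotype in this way was not counted.

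**Figure D4:**
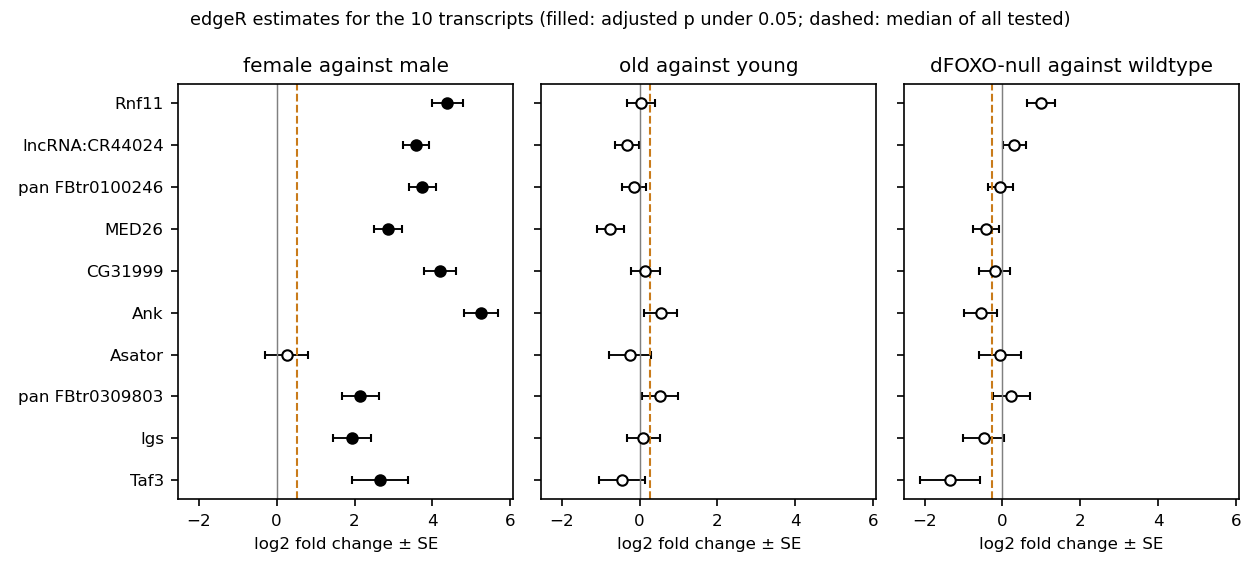
edgeR log2 fold changes with standard errors derived from the F statistic for the 10 transcripts, for sex, age and genotype, filled where the adjusted p is under 0.05, with the median of all tested transcripts dashed. All but Asator are filled and lie between 1.94 and 5.25 for sex, and no point is filled for age or genotype.

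The other members changed little against their spread. lncRNA:CR44024 had log2 fold changes of −0.33 (SE 0.31) for age and 0.31 (SE 0.31) for genotype, and pan FBtr0100246 had −0.14 (SE 0.32) and −0.05 (SE 0.33). Ank had 0.55 (SE 0.43) for age and −0.56 (SE 0.43) for genotype, and CG31999 had 0.15 (SE 0.37) and −0.20 (SE 0.39). The lowest genotype estimate was −1.35 (SE 0.77, adjusted p = 0.342) for Taf3, which rests on 85 reads in all.

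The sex difference was compared between genotypes and between ages by interaction terms. None of the 10 was called for either, or for an age effect that differs between genotypes, with edgeR or with DESeq2. Over the table, 0.0639% of transcripts were called for the first and 0.0% for each of the others. Below 0.05 unadjusted were pan FBtr0100246 and MED26 for sex by genotype, CG31999 for sex by age, and no member for age by genotype. The female excess on pan FBtr0100246 was smaller in dFOXO-null flies by 2.25 on the log2 scale (SE 0.64, unadjusted p = 0.0029, adjusted p = 0.522), and the adjusted p lay between 0.156 and 0.935 over the alternatives.

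The values behind it moved in opposite directions in the sexes. In young females pan FBtr0100246 was at 0.0232 and 0.0503 percent in wildtype and 0.0122 and 0.0146 in dFOXO-null flies, and in old females at 0.0229 and 0.0149 against 0.00784 and 0.0124. The dFOXO-null female libraries lay below both wildtype ones of the same age. In young males the values were 0.000880 and 0.000786 against 0.00136 and 0.00176, and in old males 0.000892 and 0.00106 against 0.00119 and 0.00380. The dFOXO-null male libraries lay above both wildtype ones of the same age. The share of all transcripts whose replicates separate in this way was not counted, so these orders are a description. Without the shallow male library the difference was −1.77 (adjusted p = 0.846). MED26 had −1.93 (SE 0.69, unadjusted p = 0.0124, adjusted p = 0.522), with a ratio of female to male mean percent of 14.8 and 14.3 in young and old wildtype flies and 5.34 and 2.57 in dFOXO-null flies.

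**Figure D5:**
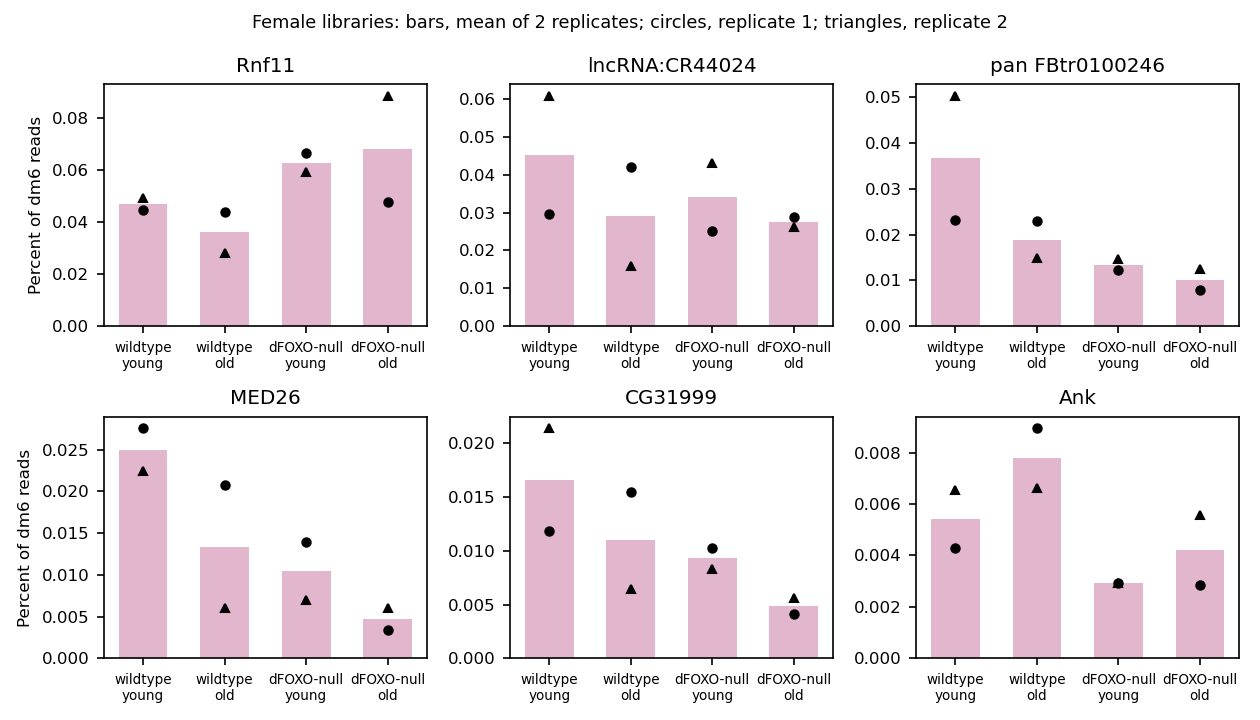
Percent of the dm6 reads in the female libraries for the 6 transcripts with a mean of at least 50 reads, bars for the mean of 2 replicates in each condition and points for the replicates. pan FBtr0100246 and MED26 have their highest means in young wildtype females, and Rnf11 has its highest means in dFOXO-null females.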

How the data were processed

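According to the paper, the authors trimmed reads with Trim Galore!, kept those of at most 25 nt, mapped them with bowtie (1 mismatch, all valid alignments reported) to dm6 and counted them with featureCounts. The deposited counts are whole reads per transcript without normalization. The deposited percents are the authors' counts divided by the mapped reads of a library; percents recomputed here differed by at most 0.00094 of a value. The counting of reads with several alignments is not given in the sources used here. Mapped transposons and miRNAs came from the deposited counts of 19 to 25 nt reads, and the table of 21 nt reads was not used.

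Counts of all 16 libraries were fitted with edgeR 4.0.16 (quasi-likelihood test, R 4.3.3), with a coefficient per condition, the dm6 total as library size, a filter of a mean of at least 5 counts, and Benjamini-Hochberg adjustment over all tested transcripts. Contrasts average over the other factors. The edgeR test gives no standard error, so each SE is the absolute log2 fold change divided by the square root of the F statistic. Alternatives were TMM factors, spike-in totals, totals without structural RNAs, DESeq2 1.42.0, no filter, a mean of at least 50, blocks, and each library left out. The fit was tried on counts simulated from its own fitted dispersions. For sex it called 10 of 1366 transcripts without a difference, 88 of 100 with a 4-fold and 100 of 100 with a 16-fold difference. The simulated libraries were independent, so this trial cannot show the effect of same-numbered libraries that deviate together. Replicates are separate pools of flies, with no more said of their independence, so p-values measure the spread between them.

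Young and old flies of a genotype and replicate were siblings by the labels, so replicate numbers pair the ages. The deviations of the 4 such pairs of conditions had correlations of 0.116 to 0.361 (median 0.315). Same-numbered conditions that were not siblings also deviated together, with medians of 0.322 for the other sex of a genotype (−0.065 to 0.582, 8 pairs) and 0.391 for the other genotype (−0.187 to 0.711, 16 pairs).

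Likeness between transcripts used log2 percents with 0.5 reads added. All 10 transcripts are named, with the 3 highest other chromosome 4 transcripts; the Wingless, Mediator and TFIID lists were counted whole. The transcripts and lists were chosen with earlier results of these data known. Muscle miRNAs (2 of 2 in the table) summed to 1.30% to 16.5% in females and 8.31% to 21.8% in males, and the nervous system miRNA miR-124-3p to 0.00127% to 0.0440% and 0.00332% to 0.0253%. PROTOP, listed as a repeat with hoppel and INE-1, had no row. Other transcripts were named after their values were seen. Python 3.11.15 with pandas 2.3.3 handled the tables, and matplotlib 3.10.9 drew the plots.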

Additional observations from a re-analysis of the deposited data

How the results depend on the processing

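The 9 calls for sex held under every alternative that kept all 10 transcripts, the replicate block and the sibling block included (9 each); with a mean of at least 50 counts 6 of 6 were called, and with each library left out the count was 8 to 9, since Taf3 fell under the filter in 3 of these fits. The median of all transcripts for sex moved from 0.51 to between 0.06 (DESeq2) and 1.87 (spike-ins). Relative to it, the median of the 10 lay 2.45 to 2.77 higher on the log2 scale in the fits that kept all 10. With a mean of at least 50 counts, the median of the 6 transcripts left lay 3.77 higher. Calls for age went from 0 to 1 with TMM factors, 5 with spike-ins, 2 with DESeq2 and 1 with the sibling block, and were 0 to 1 with a library left out; the replicate block gave 0. With spike-ins all 689 calls of the table were lower in old flies, and the log2 fold change of Rnf11 turned from 0.03 to −2.26 (adjusted p = 0.0184); spike-in totals rest on 91 to 1970 reads per library. Calls for genotype went from 0 to 1 with DESeq2 and were 0 to 1 with a library left out. Those for the interactions stayed at 0 under all alternatives (0 to 0 with a library left out). Neither block changed another call.

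The ratio of the summed percent of females over males, 12.3, was 33.7 against spike-ins and 11.4 to 14.7 with a library left out. That of old over young, 0.792, was 0.231 against spike-ins and 0.637 to 1.01, and that of dFOXO-null over wildtype, 0.915, turned to 1.44 against spike-ins and was 0.778 to 1.21 with a library left out. Of the calls over the whole table, 627 of 779 for sex were higher in females, and 513 of 880 with DESeq2. For age 247 of 305 were higher in old flies, but 35 of 226 with TMM factors, 146 of 386 with DESeq2 and 435 of 459 without structural RNAs. For genotype 20 of 154 were higher, 7 of 9 with spike-ins, 49 of 117 with DESeq2 and 19 of 74 with TMM factors. The median age estimate of all transcripts moved from 0.28 to −0.36 with TMM factors, −0.31 with DESeq2 and −1.86 with spike-ins. The causes were not tested. Age was called for 451 transcripts with the replicate block, 459 without structural RNAs and 689 with spike-ins; genotype for 257 with the replicate block, 75 with the sibling block, 74 with TMM factors and 9 with spike-ins. A mean of at least 50 counts left 667 transcripts, with 339 calls for sex, 228 of them higher in females, and 281 for age, 199 of them higher. Depth limits lgs and Taf3 most, with 110 and 85 reads in all.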
